A study of Homo sapiens with 6 samples.

Results

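The genes described here are 50 regulators and effectors of the cell division cycle and of DNA replication, chosen by name. A gene was followed through every probe set whose platform annotation gave exactly 1 gene symbol equal to its name. That found 49 of the 50 genes, with 111 of the 54675 probe sets on the array, and CDKN2C was not analysed here. By known role, 24 of the genes act in G1 and S phase, 20 in G2 and mitosis, and 6 encode inhibitors of cyclin-dependent kinases (CDKs), 5 of which were measured. The levels come from 6 expression arrays of total RNA from human cell lines, 2 arrays for each of TEM4-18, TEM2-5 and PC-3. PC-3 is an established prostate cancer line and the parent of the other lines. TEM4-18 is the line obtained from PC-3 cells that had migrated through a confluent layer of lung microvascular endothelial cells, and TEM2-5 came from a separate run of that selection. No genotype, treatment, time or agent other than this selection separates the groups, and all 3 lines were grown in DMEM/F12 with 10% FBS. Each TEM line is a single isolate. Nothing in the labels tells whether the paired arrays represent separate cultures, and the p-values therefore reflect array-to-array spread alone, possibly technical.

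Passage through G1 is driven by D-type cyclins with CDK4 or CDK6, which phosphorylate the retinoblastoma protein RB1 and so release E2F transcription factors. E2F targets include cyclin E, the MCM helicase that licenses origins, and the enzymes that make deoxynucleotides. A later wave of genes, for cyclin B, the spindle and the kinetochore, is controlled by the DREAM, MYBL2 and FOXM1 complexes and transcribed towards mitosis. The INK4 inhibitors (products of CDKN2A, CDKN2B and CDKN2C) bind CDK4 and CDK6, and the CIP/KIP inhibitors (products of CDKN1A, CDKN1B and CDKN1C) bind cyclin and CDK complexes more widely. In bulk RNA, a change in the share of cells in a phase cannot be told apart from a change of RNA per cell.

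The promoters of the classes differed in short motifs. Promoters of 300 bases were taken from RefSeq (GRCh38.p14), reaching from 250 bases before to 50 after the start given in an entry. Whether that is the main start of the gene was not checked. RefSeq gave 28 of the 50 genes exactly 1 entry, 12 several and 10 none. Those with 1 entry were searched on both strands for the CCAAT box (CCAAT), for the cell cycle homology region, or CHR (TTTGAA or TTCGAA), and for an E2F site (TTTCCCGC, TTTCGCGC, TTTGCCGC or TTTGGCGC). Among G2/M genes, 10 of 13 promoters held a CHR (76.9%), against 17.2% of the 22114 RefSeq promoters whose symbol had 1 entry. A CCAAT box stood in 11 of those 13 (84.6%), against 36.2% of the 22114. The E2F site was found in 8 of 12 promoters of G1/S genes (66.7%) and in 1 of 13 of G2/M genes (7.69%), against 3.18% of the 22114. The 12 include the RB1 window (chr13:48476200-48476499, plus strand), which held none of these motifs and whose start was likewise not checked. The 3 inhibitor promoters held neither a CHR nor an E2F site, and 1 of them, CDKN1B, held a CCAAT box. A match is a description of the letters, not a measured binding site. The sequences below are given as examples of these contrasts, with motif matches in capitals, each 5′ to 3′ on the gene's strand. TYMS (chr18:657403-657702, plus strand) has 1 E2F site, and MCM6 (chr2:135876394-135876693, minus strand) has 4 E2F matches, some of which overlap, beside CCAAT boxes and a CHR. CDC20 (chr1:43358731-43359030, plus strand) and MKI67 (chr10:128126374-128126673, minus strand) hold 2 CCAAT boxes and 2 CHR matches each, and in MKI67 a CHR and a CCAAT box on the opposite strand overlap. CDKN1B (chr12:12717118-12717417, plus strand) has 3 CCAAT boxes. In the windows of CCNE1 (chr19:29811741-29812040, plus strand) and CDKN2B (chr9:22009256-22009555, minus strand) none of these letters were found.
TYMS: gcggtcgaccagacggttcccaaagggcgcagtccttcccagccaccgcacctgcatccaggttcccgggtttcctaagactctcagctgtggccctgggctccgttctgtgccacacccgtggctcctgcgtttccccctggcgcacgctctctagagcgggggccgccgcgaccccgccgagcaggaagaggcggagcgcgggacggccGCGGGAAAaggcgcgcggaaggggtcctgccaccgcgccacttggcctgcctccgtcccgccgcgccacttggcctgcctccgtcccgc
MCM6: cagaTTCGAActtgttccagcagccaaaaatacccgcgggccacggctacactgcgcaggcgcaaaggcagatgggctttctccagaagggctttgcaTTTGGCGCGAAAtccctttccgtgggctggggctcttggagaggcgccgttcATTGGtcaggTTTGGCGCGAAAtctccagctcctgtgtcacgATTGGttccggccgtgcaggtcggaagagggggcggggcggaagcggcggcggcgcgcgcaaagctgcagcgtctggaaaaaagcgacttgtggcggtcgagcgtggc
CCNE1: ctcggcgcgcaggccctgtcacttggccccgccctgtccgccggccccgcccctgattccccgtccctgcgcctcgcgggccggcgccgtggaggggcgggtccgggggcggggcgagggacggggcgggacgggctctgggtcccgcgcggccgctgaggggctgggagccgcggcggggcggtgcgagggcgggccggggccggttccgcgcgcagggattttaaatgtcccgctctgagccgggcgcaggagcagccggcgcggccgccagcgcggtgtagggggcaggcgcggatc
CDC20: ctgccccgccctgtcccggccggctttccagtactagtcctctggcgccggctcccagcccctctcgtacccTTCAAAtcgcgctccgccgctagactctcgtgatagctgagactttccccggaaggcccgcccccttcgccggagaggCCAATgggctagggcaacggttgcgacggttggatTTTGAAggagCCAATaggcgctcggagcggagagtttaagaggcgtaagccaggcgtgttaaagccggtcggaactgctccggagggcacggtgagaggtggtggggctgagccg
MKI67: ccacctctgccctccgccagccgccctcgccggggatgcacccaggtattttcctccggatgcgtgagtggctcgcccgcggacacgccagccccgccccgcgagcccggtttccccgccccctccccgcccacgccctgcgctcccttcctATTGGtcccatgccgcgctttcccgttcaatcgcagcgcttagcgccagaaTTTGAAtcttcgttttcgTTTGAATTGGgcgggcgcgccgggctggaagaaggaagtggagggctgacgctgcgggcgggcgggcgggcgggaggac
CDKN1B: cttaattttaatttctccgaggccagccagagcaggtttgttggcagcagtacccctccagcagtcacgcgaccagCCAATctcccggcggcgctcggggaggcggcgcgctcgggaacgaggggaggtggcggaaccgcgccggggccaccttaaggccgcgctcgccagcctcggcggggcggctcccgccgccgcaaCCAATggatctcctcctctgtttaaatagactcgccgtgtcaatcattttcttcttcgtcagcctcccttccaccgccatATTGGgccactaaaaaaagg
CDKN2B: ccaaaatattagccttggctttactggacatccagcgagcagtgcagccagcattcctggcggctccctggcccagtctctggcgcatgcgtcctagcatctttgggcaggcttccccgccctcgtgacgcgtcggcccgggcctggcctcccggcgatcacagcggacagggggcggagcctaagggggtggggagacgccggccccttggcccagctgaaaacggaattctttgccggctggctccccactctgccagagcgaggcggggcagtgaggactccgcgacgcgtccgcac

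The deposited signals had been brought to a common level, with array medians between 267 and 317, and arrays of a line correlated at 0.976 to 0.980 over log2 signals. The 3'/5' ratio of ACTB, a sign of RNA integrity, ran from 1.14 to 1.22 over the 6 arrays. Of 8 epithelial and prostate markers measured, 7 passed the filter on low signals and KLK2 did not. They summed to 81090 and 74017 in TEM4-18, 92002 and 84104 in TEM2-5, and 178772 and 169380 in PC-3. Of the 7, KRT8, KRT18, KRT19, EPCAM and GATA2 were lower in each TEM line and HOXB13 was higher. The remaining 1 did not pass the test in either line and lay above 0. The called share was 85.7% in each line, against 29.3% of all genes tested in TEM4-18 and 19.0% in TEM2-5. The median log2 fold changes of the 7 were -1.02 in TEM4-18 and -0.97 in TEM2-5. Values ran down to -4.57 for GATA2 in TEM4-18, where it had 85.1 and 59.8, against 2707 and 3054 in PC-3. Of 16 endothelial markers, 7 passed that filter, and CDH5, VWF, TEK, TIE1, CLDN5, EMCN and ERG were among those that did not. The 16 summed to 6250 and 4961 in TEM4-18, 5444 and 5079 in TEM2-5, and 4067 and 3791 in PC-3. KDR and ROBO4 rose in both TEM lines and ESAM in TEM4-18. The called share of the 7 was 42.9% in TEM4-18 and 28.6% in TEM2-5, against 29.3% and 19.0% of all genes tested. None was called lower, though 3 of the 7 values in TEM4-18 and 2 in TEM2-5 were below 0, down to -0.51 and -0.56. The part of either marker list in the results below was not tested.

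Most of the cell cycle genes differed little from PC-3, and those that did belonged to no single phase. In TEM4-18, 10 of the 49 genes rose and 4 fell, which is 28.6% of them. Among all 13621 genes tested, 13.3% rose, 16.0% fell and 29.3% changed in either direction in TEM4-18, so the share among cell cycle genes was near the background. In TEM2-5, 4 rose and 6 fell (20.4%), against 8.98% of all genes higher, 10.1% lower and 19.0% in either direction. The median log2 fold change of the 49 genes was 0.02 in TEM4-18 and -0.05 in TEM2-5, where the medians of all genes were -0.04 and -0.02. Changes of at least 0.5 on the log2 scale passed the test for 5 genes in TEM4-18 (20.1% of all genes did) and for 3 in TEM2-5 (12.8% of all genes did). A gene was read from its brightest probe set, all 49 passed the filter on low signals, and a change was called at a Benjamini-Hochberg adjusted p under 0.05 from limma over all tested probe sets. The lines' comparisons share the PC-3 arrays, so their values are set side by side and are not independent.

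**Figure D1:**
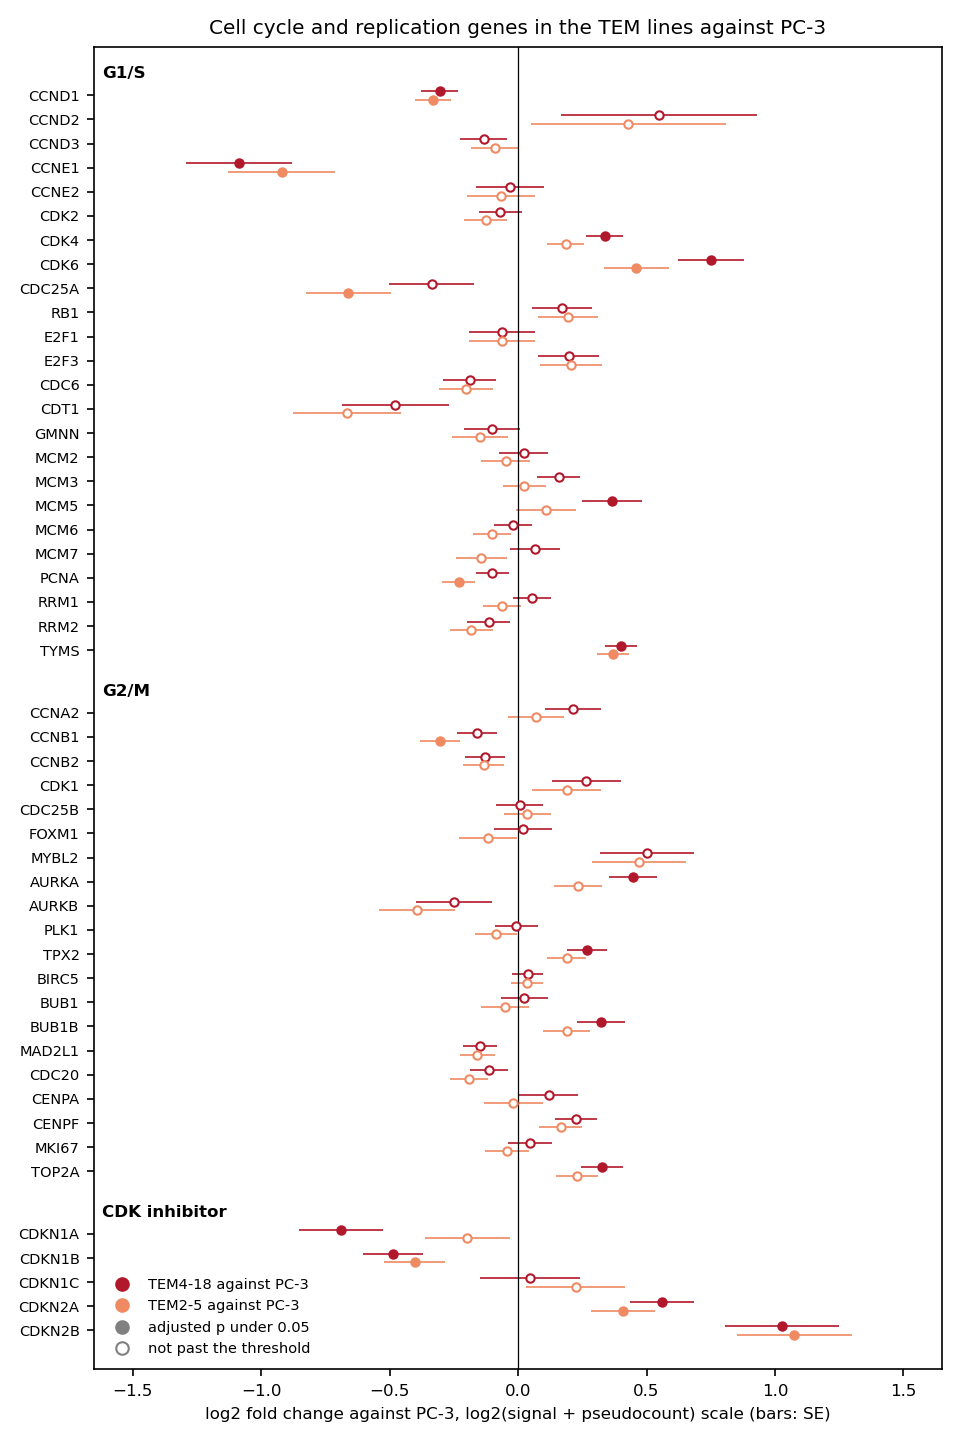
Log2 fold change of each of the 49 genes in TEM4-18 (dark red) and TEM2-5 (orange) against PC-3, on the log2(signal + pseudocount) scale, with standard errors as bars. Filled points passed an adjusted p of 0.05 and open points did not; CCNE1 lies farthest to the left and CDKN2B farthest to the right, while most G2/M genes sit near 0.

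Among the cyclins and kinases that drive G1, CCNE1 and CCND1 were lower in both TEM lines, CDK6 was higher in both and CDK4 in TEM4-18. CCNE1, which encodes the cyclin E1 partner of CDK2 at the entry to S phase, had signals of 861 and 621 in TEM4-18, 702 and 974 in TEM2-5, and 1709 and 1521 in PC-3. Both TEM lines lay below both PC-3 arrays and overlapped each other. Its log2 fold change was -1.09 ± 0.21 (SE, adjusted p = 0.00309) in TEM4-18 and -0.92 ± 0.21 (adjusted p = 0.0129) in TEM2-5. The call in TEM2-5 was lost without TEM2-5 array 1 (-0.70, adjusted p = 0.105) or PC-3 array 1 (-0.84, adjusted p = 0.0697). CCND1, the cyclin D1 gene, had 24967 and 26746 in TEM4-18, 25256 and 25505 in TEM2-5, and 30382 and 33595 in PC-3. The decrease was smaller but free of overlap with PC-3, at -0.31 ± 0.07 (adjusted p = 0.00972) in TEM4-18 and -0.33 ± 0.07 (adjusted p = 0.0102) in TEM2-5. Without PC-3 array 2 the values were -0.23 (adjusted p = 0.0781) and -0.26 (adjusted p = 0.0813), without TEM4-18 array 1 the first was -0.26 (adjusted p = 0.0767), and without TEM2-5 array 1 or 2 the second was -0.32 (adjusted p = 0.0594) or -0.34 (adjusted p = 0.0534).

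CDK6, a kinase partner of D-type cyclins, had 5412 and 5711 in TEM4-18, 4161 and 4944 in TEM2-5, and 2953 and 3647 in PC-3. The 3 lines did not overlap, TEM4-18 being highest and PC-3 lowest. It rose by 0.75 ± 0.13 (adjusted p = 0.00149) in TEM4-18 and 0.46 ± 0.13 (adjusted p = 0.0325) in TEM2-5, the TEM2-5 value not passing without TEM2-5 array 2 (0.34, adjusted p = 0.222) or PC-3 array 1 (0.31, adjusted p = 0.184). CDK4, its close relative, had 21493 and 22891 in TEM4-18, 20264 and 19662 in TEM2-5, and 16919 and 18190 in PC-3. Every TEM array lay above the PC-3 arrays, and the increase passed in TEM4-18 (0.34 ± 0.07, adjusted p = 0.00581; without TEM4-18 array 2, 0.29 with adjusted p = 0.0521) but not in TEM2-5 (0.19 ± 0.07, adjusted p = 0.111). CDC25A, the phosphatase that removes inhibitory phosphates from CDK2, had 2098 and 2412 in TEM4-18, 1721 and 1855 in TEM2-5, and 2388 and 3406 in PC-3. TEM2-5 lay below PC-3 (-0.66 ± 0.17, adjusted p = 0.0214) and TEM4-18 overlapped it (-0.34 ± 0.17, adjusted p = 0.173). The other CDC25A probe sets passed in neither line, with -0.25 (adjusted p = 0.259) and -0.16 (adjusted p = 0.676) in TEM2-5. PC-3 array 2 held the highest CDC25A signal, and without it TEM2-5 came to -0.41 (adjusted p = 0.148); without TEM2-5 array 1 or 2 the adjusted p was 0.116 or 0.0737, and without PC-3 array 1 TEM4-18 passed at -0.59 (adjusted p = 0.026). Cyclin D2 (CCND2) was dim, at 224 to 278 in TEM4-18, 225 and 226 in TEM2-5, and 131 and 180 in PC-3, and did not pass the test in either line. CCND3, CCNE2 and CDK2 had log2 fold changes between -0.13 and -0.03 and did not pass.

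Downstream of the G1 kinases, few genes moved. RB1, the tumour suppressor phosphorylated by them, had 5055 and 4733 in TEM4-18, 4736 and 5207 in TEM2-5, and 4790 and 3925 in PC-3, and the transcription factor genes E2F1 and E2F3 likewise did not pass. Their log2 fold changes were 0.17, -0.06 and 0.20 in TEM4-18 and 0.19, -0.06 and 0.21 in TEM2-5. Of the 8 licensing genes, MCM5, a subunit of the replicative helicase, rose in TEM4-18 (7596 and 8718, against 5629 and 7056 in PC-3, 0.37 ± 0.12, adjusted p = 0.0422). That call rested on small margins, the adjusted p being 0.273 without PC-3 array 1 (0.20) and 0.235 without TEM4-18 array 2 (0.27), and 0.0597 and 0.0609 without TEM2-5 array 1 or 2. MCM2, MCM3, MCM6 and MCM7 lay between -0.02 and 0.16 in TEM4-18 and between -0.14 and 0.02 in TEM2-5, with none past the test. CDT1, which loads the helicase onto origins, had 2177 and 2667 in TEM4-18, 1852 and 2404 in TEM2-5, and 2664 and 4274 in PC-3, and its values of -0.48 ± 0.21 (adjusted p = 0.127) and -0.66 ± 0.21 (adjusted p = 0.0553) did not pass. PC-3 array 1 lay close to the TEM arrays, and without it CDT1 passed at -0.81 (adjusted p = 0.0137) in TEM4-18 and -1.0 (adjusted p = 0.00841) in TEM2-5. CDC6 and GMNN, the other licensing regulators, lay between -0.20 and -0.10 in both lines and did not pass.

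TYMS, thymidylate synthase, which makes the thymidine nucleotide for DNA, rose in both lines. Its signals were 54499 and 60292 in TEM4-18, 54897 and 57295 in TEM2-5, and 43509 and 43279 in PC-3. All TEM arrays stood above the PC-3 arrays. The log2 fold change was 0.40 ± 0.06 in TEM4-18 (adjusted p = 0.000974) and 0.37 ± 0.06 in TEM2-5 (adjusted p = 0.00299), and both calls held with any single array left out. RRM1 and RRM2, the subunits of ribonucleotide reductase, did not follow it. By their brightest probe sets they stood at 0.05 and -0.11 in TEM4-18 and -0.06 and -0.18 in TEM2-5, none past the test. Another RRM2 probe set fell in both lines (-0.20, adjusted p = 0.0454, in TEM4-18 and -0.30, adjusted p = 0.0105, in TEM2-5). PCNA, the sliding clamp of the replication fork, fell in TEM2-5 (27531 and 27106, against 31243 and 32886 in PC-3, -0.23 ± 0.06, adjusted p = 0.0335) and came to -0.10 ± 0.06 (adjusted p = 0.299) in TEM4-18. The PCNA call was lost without either TEM2-5 array or either PC-3 array, with adjusted p between 0.0571 and 0.168 and values from -0.27 to -0.19. Over the 24 G1/S genes, 4 rose and 2 fell in TEM4-18, and 2 rose and 4 fell in TEM2-5. The called share was 25% in each line, against 29.3% of all genes in TEM4-18 and 19.0% in TEM2-5.

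**Figure D2:**
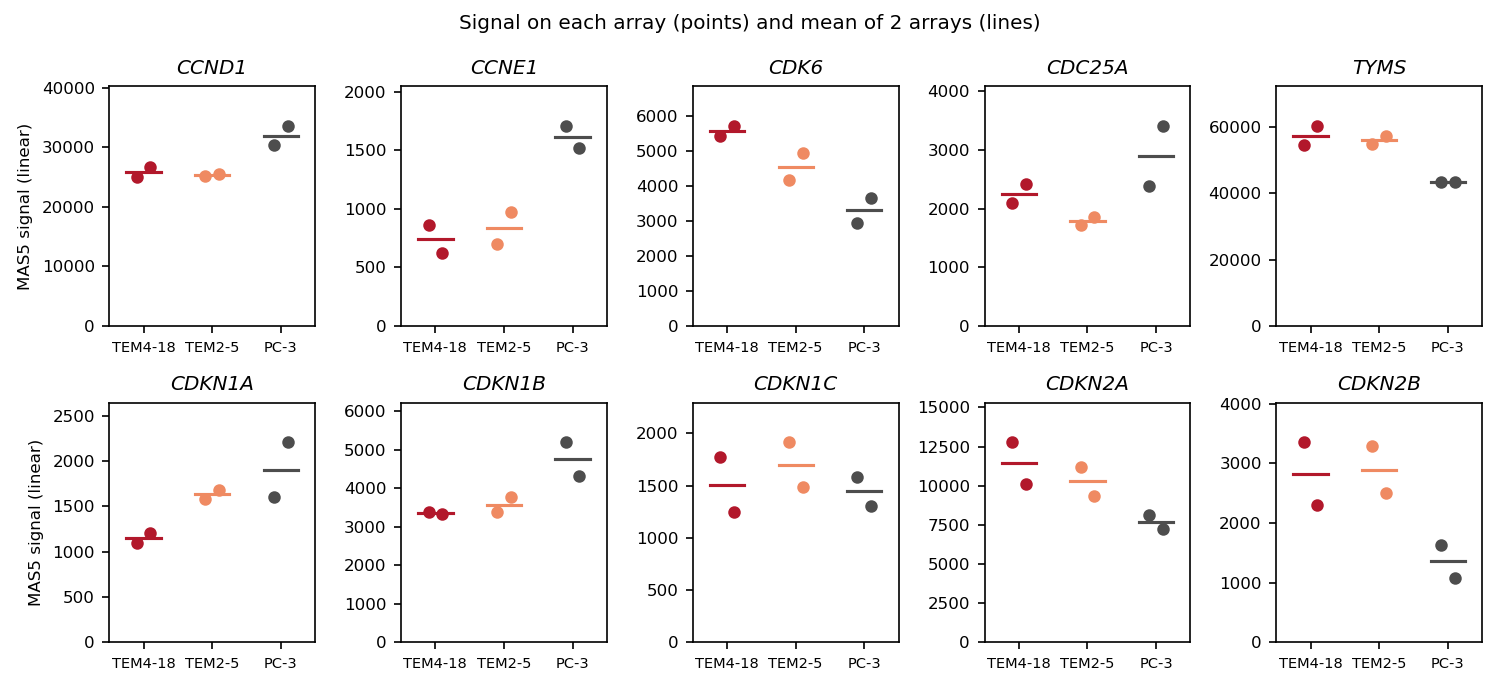
MAS5 signal (linear axis from 0) on each array as points, with the mean of 2 arrays as a line, for 10 of the genes in TEM4-18, TEM2-5 and PC-3. CCND1, CCNE1 and CDKN1B lie lower on every TEM array than on the PC-3 arrays and CDK6, TYMS, CDKN2A and CDKN2B higher, while CDKN1C overlaps in all 3 lines.

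The G2/M genes differed from PC-3 by small amounts. In TEM4-18, 4 of the 20 rose and none fell (20%, against 29.3% of all genes called). In TEM2-5 none rose and 1 fell (5%, against 19.0% of all genes). The median log2 fold changes were 0.04 and 0.01. The proliferation marker MKI67 had 7462 and 7487 in TEM4-18, 7140 and 6895 in TEM2-5, and 6983 and 7492 in PC-3. Each TEM line overlapped PC-3, while both TEM4-18 arrays lay above both TEM2-5 arrays. The log2 fold changes against PC-3 were 0.05 ± 0.09 (adjusted p = 0.744) and -0.04 ± 0.09 (adjusted p = 0.79). Its 4 probe sets ran from -0.10 to 0.38 in TEM4-18 and from -0.14 to 0.25 in TEM2-5, and 1 of them passed, in TEM4-18 (0.38 ± 0.12, adjusted p = 0.0444). The mitotic kinase PLK1, the checkpoint kinase BUB1, the survivin gene BIRC5, the phosphatase CDC25B and the transcription factor FOXM1 likewise lay between -0.01 and 0.04 in TEM4-18 and between -0.12 and 0.04 in TEM2-5, none past the test.

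The 4 genes that rose in TEM4-18 act on the spindle, at kinetochores or on chromosomes. AURKA, the centrosomal kinase Aurora A, had 17159 and 19581 in TEM4-18, 15011 and 16600 in TEM2-5, and 12631 and 14260 in PC-3, which is 0.45 ± 0.09 (adjusted p = 0.00524) in TEM4-18 and 0.23 ± 0.09 (adjusted p = 0.124) in TEM2-5. TPX2, which activates AURKA on spindle microtubules, had 18660 and 20685 in TEM4-18, 18318 and 18884 in TEM2-5, and 15733 and 16913 in PC-3 (0.27 ± 0.08, adjusted p = 0.0274, in TEM4-18, and 0.19 ± 0.08, adjusted p = 0.131, in TEM2-5). BUB1B, a spindle checkpoint protein, had 16997 and 17654 in TEM4-18, 14363 and 17346 in TEM2-5, and 13583 and 14098 in PC-3 (0.32 ± 0.09, adjusted p = 0.0254, and 0.19 ± 0.09, adjusted p = 0.202). In all of these, both arrays of each TEM line exceeded the PC-3 arrays. TOP2A, the topoisomerase that untangles chromosomes, had 18230 and 19078 in TEM4-18, 16617 and 18271 in TEM2-5, and 15576 and 14175 in PC-3 (0.33 ± 0.08, adjusted p = 0.0125, and 0.23 ± 0.08, adjusted p = 0.081). These increases were small and depended on single arrays. Without TEM4-18 array 2 the 4 genes had adjusted p of 0.0512 (AURKA, 0.35), 0.19 (TPX2, 0.19), 0.119 (BUB1B, 0.30) and 0.0792 (TOP2A, 0.29). TPX2 and BUB1B were also lost without PC-3 array 1 (0.22, adjusted p = 0.145, and 0.30, adjusted p = 0.105). Without PC-3 array 2, BUB1B came to 0.35 (adjusted p = 0.0618) and TOP2A to 0.26 (adjusted p = 0.0866), and without TEM4-18 array 1 BUB1B came to 0.35 (adjusted p = 0.0673). A second probe set of AURKA gave 0.17 ± 0.07 (adjusted p = 0.128) in TEM4-18. AURKA is also read by a dimmer probe set whose name carries no mark of shared transcripts, at 558 and 266 in TEM4-18 and 532 and 345 in PC-3, and that gave -0.13 (adjusted p = 0.834).

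CCNB1, the mitotic cyclin B1 gene, was the G2/M gene that fell. It had 18072 and 19437 in TEM2-5 and 24214 and 22163 in PC-3 (-0.30 ± 0.08, adjusted p = 0.0225), with 19931 and 21553 in TEM4-18 (-0.16 ± 0.08, adjusted p = 0.165). Its other probe set pointed the other way without passing the test (0.20 ± 0.11, adjusted p = 0.262, in TEM2-5), and the call was lost without TEM2-5 array 1 (-0.25, adjusted p = 0.145), TEM2-5 array 2 (-0.36, adjusted p = 0.0502) or PC-3 array 1 (-0.24, adjusted p = 0.129). CDK1, the kinase that cyclin B activates, was higher by 0.27 ± 0.13 in TEM4-18 and 0.19 ± 0.13 in TEM2-5. Neither value passed the test, and without TEM4-18 array 1 the TEM4-18 value was 0.46. The other CDK1 probe sets ran from -0.15 to 0.12 in TEM4-18 and from -0.46 to -0.04 in TEM2-5, none past the test. MYBL2, which drives transcription of G2/M genes, stood at 0.50 ± 0.18 (adjusted p = 0.0704) in TEM4-18 and 0.47 ± 0.18 (adjusted p = 0.114) in TEM2-5. MYBL2 passed in TEM4-18 without TEM4-18 array 1 (0.70, adjusted p = 0.0399), TEM2-5 array 1 (0.50, adjusted p = 0.0485) or PC-3 array 2 (0.70, adjusted p = 0.0372). Aurora B (AURKB) had the lowest value of the class, -0.25 ± 0.15 in TEM4-18 and -0.39 ± 0.15 (adjusted p = 0.101) in TEM2-5. The other AURKB probe set, a dim one, pointed the other way without passing (0.34 ± 0.32 in TEM4-18 and 0.50 ± 0.32 in TEM2-5). CCNA2, CCNB2, MAD2L1, CDC20, CENPA and CENPF, for cyclins, checkpoint proteins and centromere proteins, lay between -0.15 and 0.23 in TEM4-18 and between -0.19 and 0.17 in TEM2-5 and did not pass.

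Among the CDK inhibitors, the INK4 genes were higher in both TEM lines and the CIP/KIP genes lower or not past the test. Of the 5 measured, 2 rose and 2 fell in TEM4-18 (80%, against 29.3% of all genes called). In TEM2-5, 2 rose and 1 fell (60%, against 19.0% of all genes). CDKN2B, which encodes the INK4 inhibitor p15, had 3349 and 2297 in TEM4-18, 3293 and 2499 in TEM2-5, and 1635 and 1086 in PC-3. Every TEM array exceeded both PC-3 arrays, with overlap between the TEM lines. The log2 fold changes were 1.03 ± 0.22 (adjusted p = 0.00636) in TEM4-18 and 1.08 ± 0.22 (adjusted p = 0.00823) in TEM2-5. Each log2 value is on the log2(signal + 51.8) scale, which understates changes of dim genes. In each TEM line array 1 was the higher, and without it the adjusted p was 0.0559 (0.76) in TEM4-18 and 0.0759 (0.88) in TEM2-5; without PC-3 array 2, TEM2-5 came to 0.79 (adjusted p = 0.0586). CDKN2A, whose locus encodes the INK4 inhibitor p16 and, from another reading frame, p14ARF, had 12759 and 10132 in TEM4-18, 11209 and 9336 in TEM2-5, and 8142 and 7270 in PC-3. The TEM arrays again lay above the PC-3 arrays, with 0.56 ± 0.12 (adjusted p = 0.00744) in TEM4-18 and 0.41 ± 0.12 (adjusted p = 0.0492) in TEM2-5. In TEM4-18 the call was lost without its array 1 (0.39, adjusted p = 0.0651) or PC-3 array 2 (0.48, adjusted p = 0.0522). In TEM2-5 it was lost without TEM2-5 array 1 (0.28, adjusted p = 0.297) or PC-3 array 1 or 2 (0.49, adjusted p = 0.0659, and 0.33, adjusted p = 0.219), and with quantile normalization (0.41, adjusted p = 0.07).

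The CIP/KIP genes fell or did not pass. CDKN1A, which encodes p21, a classical target of p53, had 1097 and 1202 in TEM4-18, 1586 and 1685 in TEM2-5, and 1606 and 2206 in PC-3. TEM4-18 lay below the other lines (-0.69 ± 0.17, adjusted p = 0.0111), and TEM2-5 overlapped PC-3 (-0.20 ± 0.17, adjusted p = 0.48). The difference of TEM4-18 from TEM2-5 itself, -0.49 ± 0.17, did not pass (adjusted p = 0.224). Without PC-3 array 2, the higher of its pair, TEM4-18 came to -0.47 (adjusted p = 0.0907), and without TEM4-18 array 1 to -0.63 (adjusted p = 0.0614). CDKN1B, which encodes p27, had 3396 and 3329 in TEM4-18, 3371 and 3772 in TEM2-5, and 5186 and 4313 in PC-3. Both TEM lines lay below PC-3, with changes of -0.49 ± 0.12 in TEM4-18 (adjusted p = 0.0117) and -0.40 ± 0.12 in TEM2-5 (adjusted p = 0.0419). The call in TEM4-18 was lost without its array 2 (-0.47, adjusted p = 0.0559) or PC-3 array 1 (-0.35, adjusted p = 0.0938). In TEM2-5 leaving out any single array other than PC-3 array 2 ended the call, with values from -0.48 to -0.27 and adjusted p from 0.0528 to 0.235. CDKN1C, which encodes p57, had 1776 and 1242 in TEM4-18, 1912 and 1489 in TEM2-5, and 1579 and 1308 in PC-3, overlapping throughout (0.05 ± 0.19, adjusted p = 0.897, and 0.22 ± 0.19, adjusted p = 0.496).

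Set array by array against the PC-3 mean, the G2/M class stayed close to 0. Its median difference on the log2 scale was 0.03 and 0.08 in TEM4-18, 0.01 and 0.00 in TEM2-5, and -0.01 and 0.01 in PC-3. The G1/S median was -0.07 and 0.08 in TEM4-18, -0.12 and -0.05 in TEM2-5, and -0.06 and 0.06 in PC-3, so that arrays of a line differed by as much as the lines did. This difference had the same sign in every line, the higher-numbered array having the higher median. The inhibitors spread most widely, with medians of 0.30 and -0.20 in TEM4-18, 0.40 and 0.05 in TEM2-5, and 0.13 and -0.13 in PC-3, each over 5 genes. Their median was lower on the higher-numbered array of every line. Leaving out a single array therefore also unbalanced the replicate numbers between lines, and its effect on the calls was not separated from this shift.

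**Figure D3:**
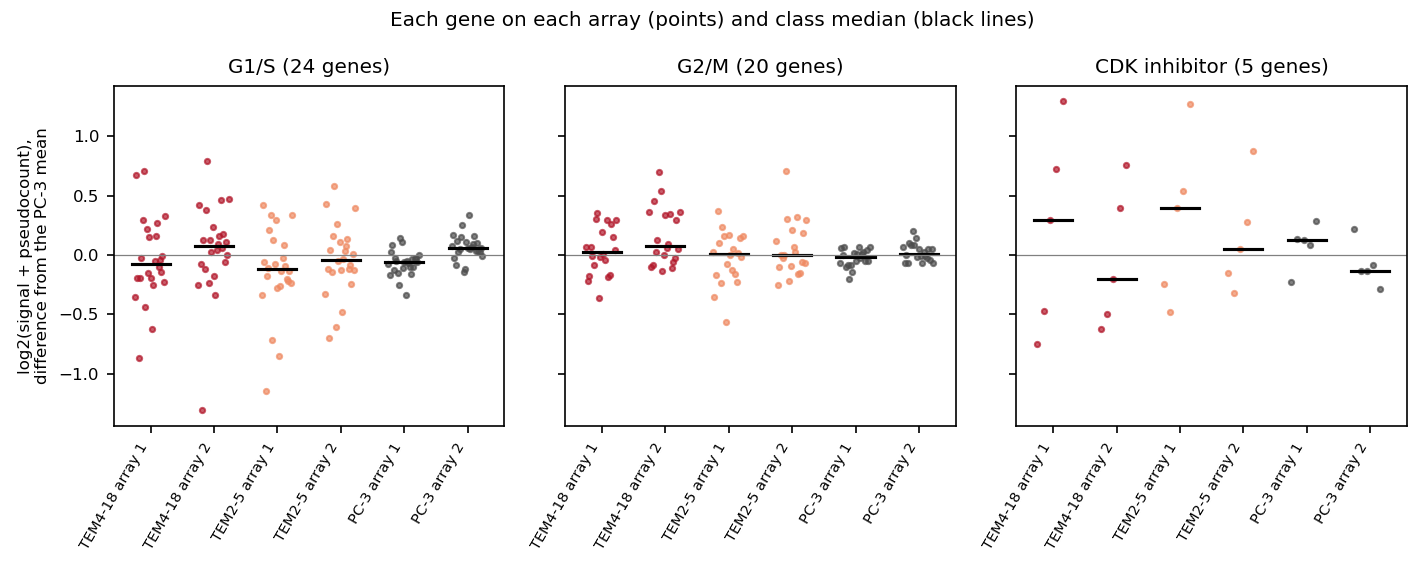
Difference of each gene from its PC-3 mean on each of the 6 arrays, on the log2(signal + pseudocount) scale, by class, with black lines for class medians (0.03 and 0.08 for G2/M on the TEM4-18 arrays). G2/M genes cluster near 0 on every array, and the inhibitors fall on both sides.

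Between the TEM lines no gene of the set passed the test. The counts were 0 higher and 0 lower of 49 in TEM4-18 against TEM2-5 with limma, where 0.492% of all genes were higher, 2.26% lower and 2.75% past the test in either direction, and 3 genes had an unadjusted p under 0.05. The largest differences were -0.49 for CDKN1A and 0.32 ± 0.17 (adjusted p = 0.478) for CDC25A. The median of the set was 0.08, where that of all genes was -0.01. In this comparison 40 of the 49 values were above 0, among them 19 of 20 G2/M and 20 of 24 G1/S genes, where 47.7% of all genes were above 0. Without TEM4-18 array 2 the number was 30 of 49, and without TEM2-5 array 1 it was 32 of 49. Both TEM4-18 arrays lay above both TEM2-5 arrays for 11 of the 49 genes and below for 1, where 20.4% of all genes lay above and 23.9% below. Against PC-3, both arrays lay above for 18 and below for 11 in TEM4-18 (28.3% and 34.8% of all genes), and above for 12 and below for 17 in TEM2-5 (27.7% and 32.2% of all genes).

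Averaging the TEM lines gave 10 genes higher and 7 lower than PC-3 of 49 (34.7%), where 13.8% of all genes were higher, 16.2% lower and 30.0% in either direction. CDK4 (0.26 ± 0.06, adjusted p = 0.0105), AURKA (0.34 ± 0.08, adjusted p = 0.0106) and TOP2A (0.28 ± 0.07, adjusted p = 0.0135) were among those higher. MYBL2 rose (0.49 ± 0.16, adjusted p = 0.0455) and CDT1 fell (-0.57 ± 0.18, adjusted p = 0.0402) here though neither passed in a single line. CCNE1 (-1.0 ± 0.18, adjusted p = 0.0021) and CDKN2B (1.05 ± 0.19, adjusted p = 0.00241) stood at the ends of the range.

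Different probe sets of a gene read different stretches of its transcripts, and 102 of the 111 passed the filter on low signals, 31 genes having several. No gene had probe sets called in opposite directions in either line. Of 8 genes called in TEM4-18 that had several, 2 passed with all of their probe sets, as did 2 of 7 in TEM2-5. Over the 102 probe sets, 18 rose and 6 fell in TEM4-18 (23.5%), where 12.8% of all tested probe sets rose, 12.8% fell and 25.6% were called. In TEM2-5, 9 rose and 9 fell (17.6%), where 8.66% of all rose, 7.59% fell and 16.3% were called. CDK6 passed in TEM4-18 with 3 of 7, the brightest given above and others at 0.86 ± 0.14 and 0.47 ± 0.12, and 4 dimmer ones did not pass. Its mean over all 7 was 0.37 (adjusted p = 0.0573) in TEM4-18. In TEM2-5, 2 of the 7 passed and the mean was 0.28 (adjusted p = 0.17). TYMS had a second probe set at 21414 and 22957 in TEM4-18, 22040 and 22410 in TEM2-5, and 13173 and 14380 in PC-3, with 0.69 ± 0.07 in each line. TOP2A had another probe set at 11475 and 11513 in TEM4-18, 10415 and 11902 in TEM2-5, and 7727 and 6805 in PC-3, and it rose in both lines (0.66 ± 0.10, adjusted p = 0.000529, and 0.62 ± 0.10, adjusted p = 0.00165). CENPF, a kinetochore protein gene whose brightest probe set did not pass, rose in both lines by another probe set (3464 and 3060 in TEM4-18, 2888 and 2955 in TEM2-5, 2129 and 1996 in PC-3, with 0.65 ± 0.12 and 0.49 ± 0.12). CCND1 fell further by another probe set (-0.64 ± 0.09 and -0.51 ± 0.09), and CDKN2A rose by another as well (0.64 ± 0.12 and 0.71 ± 0.12). The second probe set of CDKN2B was dim and did not pass (1.01 ± 0.35, adjusted p = 0.0565, in TEM4-18, and 0.71 ± 0.35, adjusted p = 0.208, in TEM2-5). In each line, 4 genes whose brightest probe set did not pass had another that did. In TEM4-18 these were CENPF and MKI67, given above, RRM2 (-0.20 ± 0.07, adjusted p = 0.0454) and MAD2L1 (0.64 ± 0.15, adjusted p = 0.00851), the last against -0.15 by its brightest. In TEM2-5 they were CENPF and TOP2A, given above, RRM2 (-0.30 ± 0.07, adjusted p = 0.0105) and CDK2 (-0.40 ± 0.10, adjusted p = 0.0253).

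**Figure D4:**
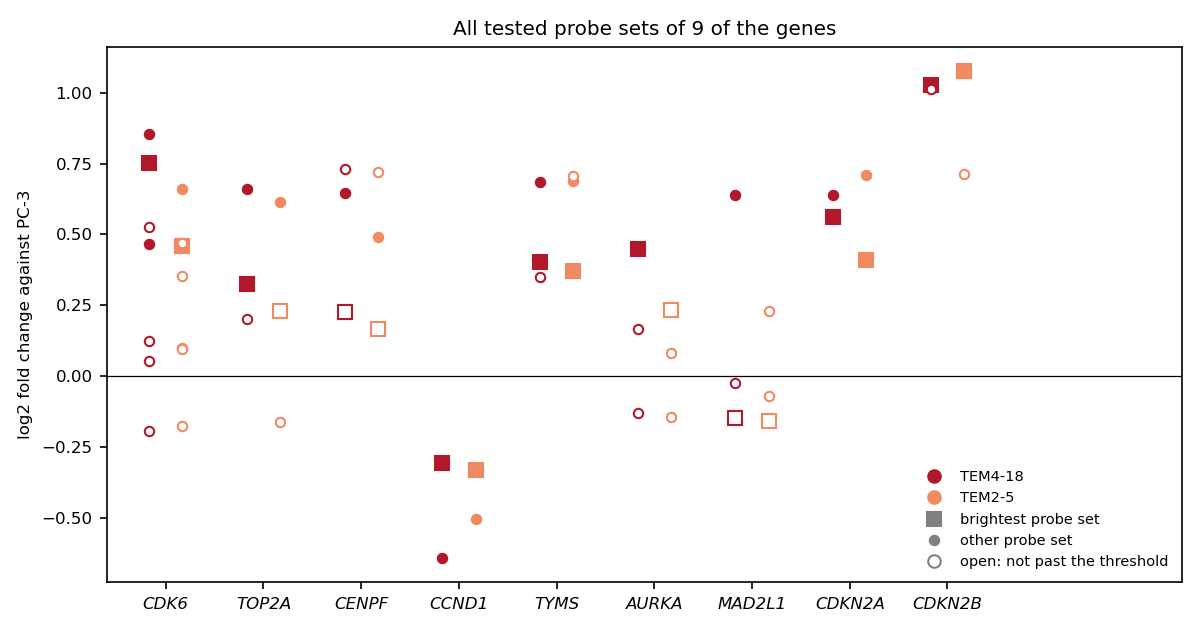
Log2 fold change against PC-3 of every tested probe set of 9 of the genes, in TEM4-18 (dark red) and TEM2-5 (orange); squares are the brightest probe set, circles the others, and open symbols did not pass an adjusted p of 0.05. Called probe sets of a gene lie on the same side of 0 in each line, as for CDK6, TYMS and CCND1.

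Wider lists of cell cycle genes were counted in the same way. In 7 lists, for origins and the helicase, the fork and nucleotides, RB, E2F and DREAM, kinetochore and spindle, proteolysis, checkpoints, and other cyclins, kinases and inhibitors, 162 of 165 genes were tested. In TEM4-18, 28 rose and 13 fell (25.3%, against 29.3% of all genes), and in TEM2-5, 9 rose and 11 fell (12.3%, against 19.0% of all genes), with medians of 0.05 and -0.01. Over all genes, 13.3% rose and 16.0% fell in TEM4-18, and 8.98% rose and 10.1% fell in TEM2-5. The kinetochore and spindle list, with 50 genes, had 10 higher and 1 lower in TEM4-18 and 3 higher and 2 lower in TEM2-5. The fork and nucleotide list had 2 higher and 2 lower of 27 in TEM4-18, and in TEM2-5 none passed at either sign. Origin and helicase genes numbered 2 higher and 2 lower of 18 in TEM4-18 and 0 higher and 2 lower in TEM2-5. RB, E2F and DREAM genes had 2 higher and 1 lower of 14 in TEM4-18 and 1 higher and 2 lower in TEM2-5, and proteolysis genes 6 higher and 0 lower of 24 in TEM4-18 and 1 higher and 1 lower in TEM2-5. Checkpoint kinases and phosphatases had 2 higher and 3 lower of 13 in each line, and the other cyclins, kinases and inhibitors 4 higher and 4 lower of 16 in TEM4-18 and 2 higher and 1 lower in TEM2-5.

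The genes of these lists that moved most in both lines included DLGAP5, a spindle protein gene, with 35068 and 32932 in TEM4-18, 25335 and 26074 in TEM2-5, and 17005 and 14813 in PC-3. It rose by 1.10 ± 0.08 and 0.69 ± 0.08, and was higher in TEM4-18 than in TEM2-5 (0.40 ± 0.08, adjusted p = 0.0313). The cyclin-dependent kinase gene CDK14 (1.05 ± 0.17 and 1.09 ± 0.17), the checkpoint kinase gene ATM (0.91 ± 0.13 and 0.83 ± 0.13) and TFDP2, a partner of E2F proteins (0.75 ± 0.17 and 0.73 ± 0.17), were also higher. E2F5, a repressive member of the E2F family, had 1901 and 1819 in TEM4-18, 2110 and 1861 in TEM2-5, and 4335 and 4012 in PC-3, and fell (-1.14 ± 0.12 in TEM4-18 and -1.05 ± 0.12 in TEM2-5). PKMYT1, a kinase that restrains CDK1 (-0.88 ± 0.19 and -0.84 ± 0.19), and GINS4, a subunit of the replicative helicase complex (-0.92 ± 0.20 and -0.67 ± 0.20), were lower.

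A list of p53 targets was set beside CDKN1A, since PC-3 is known to lack functional p53. Of 18 tested, 1 rose and 6 fell in TEM4-18, and 1 rose and 5 fell in TEM2-5, with medians of -0.33 and -0.13. The called share was 38.9% in TEM4-18, against 29.3% of all genes, and 33.3% in TEM2-5, against 19.0%. FAS, a death receptor gene (-1.50 ± 0.23 and -1.23 ± 0.23), and PHLDA3, an inhibitor of AKT signalling (-1.41 ± 0.16 and -0.85 ± 0.16), fell in both lines, and ZMAT3, an RNA-binding protein gene, rose (0.98 ± 0.19 and 0.70 ± 0.19). MDM2, the p53 ubiquitin ligase gene, did not pass (-0.41, adjusted p = 0.0865, in TEM4-18 and -0.14, adjusted p = 0.609, in TEM2-5).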

How the data were processed

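Total RNA of TEM4-18, TEM2-5 and PC-3 was measured on 6 arrays, 2 per line. The authors deposited linear signal intensities for each probe set; the submitters' processing notes name MAS5, with no version, and the 2% trimmed mean was 1500.17 to 1500.18 on every array, so they were not normalized again. From the deposited intensity, log2(value + 51.8) was taken, 51.8 being the 20th percentile of all values. Probe sets with a mean above 174 (the 40th percentile of their means) were tested, 32768 in all. Genes were named where the annotation gave 1 symbol (41097 probe sets, against 1801 with several and 11777 with none) and read from the brightest. Names were matched to RefSeq GRCh38.p14, which changed 0 symbols.

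Limma 3.58.1 in R 4.3.3 (lmFit, eBayes with trend) was fitted with a mean per line over the 6 arrays (3 residual degrees of freedom), two-sided, adjusted by Benjamini-Hochberg over all tested probe sets at 0.05. ± is a standard error of the fit. The number of arrays limits the precision, and the procedure was tested on simulated data. Per-array values are given for every inhibitor and for genes past the test with a change of at least 0.5; others were added after values were seen. From the wider lists, up to 5 genes each way were named, those past the test in both lines. Members and lists were chosen with earlier results of these data known. Detection calls were not used here. The title of TEM2-5 array 2 was followed where its source name says replicate 1. Pseudocount, filter, normalization, probe set choice, trend, block and single arrays were varied.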

Additional observations from a re-analysis of the deposited data

How the results depend on the processing

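Over 15 alternatives, 1354 of the values for single genes against PC-3 stayed on their side of the threshold, 90 lost a call, 22 gained one and 2 called values turned sign. Of the 1354, 63 turned sign without being called either way, none larger than 0.345. The called values that turned were CCNB1 in TEM2-5 (0.20, adjusted p = 0.262) and AURKA in TEM4-18 (-0.13, adjusted p = 0.834), both with the brightest probe set whose name does not end in _s_at or _x_at, which is another probe set. CCNE1 in TEM4-18 passed under all 15. With no mean-variance trend, TEM4-18 kept 1 gene higher (CDK6) and 1 lower (CCNE1), TEM2-5 had 0 higher and 0 lower with limma (9 at an unadjusted p under 0.05), and the mean of the TEM lines had 2 higher and 1 lower; the cause was not tested. Over all genes 17.2%, 7.59% and 17.5% were then called. With no filter on low values, more probe sets were adjusted over, and TEM2-5 had 2 genes higher and 3 lower (9.91% of all genes called) and the mean of the TEM lines 3 lower (17.4%).

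Leaving out single arrays gave 4 to 10 genes higher and 2 to 5 lower in TEM4-18, 2 to 4 higher and 0 to 5 lower in TEM2-5, and 5 to 10 higher and 3 to 7 lower for the mean; an array left alone in its line was assumed to vary like the other lines. The share of all genes called was then 21.7% to 27.3% in TEM4-18, 10.6% to 18.6% in TEM2-5 and 20.1% to 26.9% for the mean. TEM4-18 had 4 higher without its array 2, 2 lower without its array 1 and 2 lower without PC-3 array 2. TEM2-5 had 2 higher and 0 lower without its array 1, 1 lower without its array 2, and 2 higher and 3 lower without PC-3 array 1 or 2. The mean had 5 higher without PC-3 array 1, 4 lower without PC-3 array 2, and 3 lower without TEM4-18 array 1 or TEM2-5 array 1. TEM4-18 against TEM2-5 gave 0 higher and 0 lower under every alternative with limma, with 1 to 8 genes at an unadjusted p under 0.05.

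Deviations of same-numbered arrays correlated at 0.062 to 0.098, so the replicate numbers showed little pairing of the arrays as a whole. These correlations cannot tell whether particular genes shifted with the replicate number. In every line the G1/S class median rose from the lower-numbered to the higher-numbered array, and the inhibitor median fell. The G2/M median rose in TEM4-18 and PC-3 and fell slightly in TEM2-5. The cause of these shifts was not tested. With the replicate number as a block, TEM4-18 had 11 genes higher and 5 lower, TEM2-5 6 and 9, the mean 11 and 10, and TEM4-18 against TEM2-5 0 and 0, where 32.9%, 23.1%, 33.8% and 4.02% of all genes were called. The block added MYBL2 (adjusted p = 0.00134 and 0.0034) and CDT1 (0.0153 and 0.00439) in both lines, and AURKA, AURKB (0.0163) and RRM2 in TEM2-5. MAS5 values of dim probe sets are noisy, which limits CCND2 and the second CDKN2B probe set.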

Other observations

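The 3 nearest tested genes on each side of the 7 genes called in both lines were looked at after their values were known. Of these 36 neighbours, 7 were higher and 5 lower in TEM4-18 (33.3%, against 29.3% of all genes), and 4 were higher and 5 lower in TEM2-5 (25%, against 19.0%). CDKN2A and CDKN2B lie on chromosome 9. In the order of the RefSeq gene table, MIR31HG, IFNE and MTAP come before CDKN2A, and ELAVL2 and TUSC1 after CDKN2B. IFNE, an interferon gene, had 834 and 822 in TEM4-18, 706 and 729 in TEM2-5, and 402 and 296 in PC-3, a rise of 1.15 (adjusted p = 0.00245) and 0.95 (adjusted p = 0.0116). MIR31HG, the host transcript of miR-31, rose by 0.71 (adjusted p = 0.00196) and 0.62 (adjusted p = 0.00789). MTAP, a methionine salvage enzyme gene, had 2255 and 2554 in TEM4-18, 2306 and 2380 in TEM2-5, and 1724 and 1835 in PC-3, which passed in TEM4-18 (0.42, adjusted p = 0.0286) and not in TEM2-5 (0.39, adjusted p = 0.0573). On the other side, ELAVL2, an RNA-binding protein gene, was lower in both lines (-0.77 and -0.36), and TUSC1 did not pass (0.26 and 0.17).

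Beside CDK6, which rose in both lines, SAMD9, an antiviral factor gene, was lower in both (-1.55, adjusted p = 0.000151, and -0.77, adjusted p = 0.0176), its paralog SAMD9L was lower in TEM4-18 (-1.13, adjusted p = 0.00231), and ANKIB1 was higher in both (0.39 and 0.45). Of the 6 neighbours of CCND1, MYEOV was lower in TEM2-5 (-0.41, adjusted p = 0.0266) and the others passed in neither line. Beside TYMS, the SRC-family kinase gene YES1 had 30586 and 29665 in TEM4-18, 25949 and 32235 in TEM2-5, and 20516 and 19402 in PC-3, and rose by 0.59 (adjusted p = 0.000974) and 0.53 (adjusted p = 0.00339). Beside CDKN1B, GPRC5A, an orphan receptor gene, had 1863 and 1358 in TEM4-18, 4939 and 3568 in TEM2-5, and 13958 and 14191 in PC-3 (-3.10 and -1.73), and the phosphatase gene DUSP16 was lower in both lines (-1.03 and -0.88). The 6 neighbours of CCNE1 included 1 gene past the test in a single line, ZNF507 in TEM4-18 (0.62, adjusted p = 0.0145).

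Between the TEM lines, 2 of the 162 genes of the wider cell cycle lists passed the test (1.23%, against 2.75% of all genes). Both were higher in TEM4-18 and are named here because they were so few. Of all genes, 0.492% were higher in TEM4-18 and 2.26% lower. Besides DLGAP5, this was CDKN3, a phosphatase gene acting on CDKs, with 54194 and 54420 in TEM4-18 and 45406 and 45567 in TEM2-5, against 41351 and 40623 in PC-3 (0.26 for TEM4-18 against TEM2-5, adjusted p = 0.0455).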
